A study of Mus musculus with 2 samples.

Results

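The genes described are Trp53, which encodes the tumour suppressor p53, its partners Mdm2 and Mdm4, and the p53 target genes Perp, Ccng1, Phlda3, Zmat3, Gadd45a and Sesn1. These 9 genes were taken by name from the 23235 rows of the deposited gene table, and each name matched 1 row. RNA was sequenced from 2 mouse acute promyelocytic leukaemias (APL), with 1 library each, called APL#1 and APL#2; per the design text of the series, these clones have unequal frequencies of leukaemia-initiating cells. Per the labels, both leukaemias arose in mice of strain C57BL/6-Ly5.2 that carry the PML-RAR fusion (named mCG-PML-RAR transgenic in one label and PML-RAR KI in another), and both samples are untreated with an age of 10 weeks, although the titles hold an unexplained VEH. The leukaemic cells were passed by vein into C57BL/6-Ly5.1 recipients that had not been irradiated, at 2000000 cells for APL#1 and 200000 for APL#2, and the CD45.2+ cells were then recovered from spleen on immunomagnetic columns. The host keeps its own blood cells, and how many recipients stand behind a library was not given in the sources used here. With 1 library each, the leukaemia, the recipient, the cell dose and the library cannot be told apart, and no difference has a replicate check.

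The p53 protein is a transcription factor that is held at a low level in unstressed cells. Mdm2 is the ubiquitin ligase that marks p53 for destruction, Mdm4 is its relative that binds p53 and blocks its activity, and Mdm2 is itself a p53 target, so the pair forms a feedback loop. After DNA damage or oncogenic stress p53 is stabilised as a protein and switches on genes of cell cycle arrest, DNA repair, metabolism and cell death. In APL, the PML-RAR fusion disrupts PML nuclear bodies, in which p53 is modified. RNA levels do not show p53 protein level, activity or mutation.

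The p53 protein binds DNA at a consensus element made of a pair of adjoining 10-base units. The 300 bases around the annotated starts, from 250 before to 50 after, were searched on the strand of the gene for the 20-base p53 consensus element with no spacer (a consensus that reads the same on the other strand), using RefSeq promoter sequences of build GRCm38.p6. Windows were found for 7 of the 9 genes (9 windows, since Mdm4 and Sesn1 have 2 starts each); Perp and Zmat3 had no entry. The closest matches are shown because p53 acts on its targets through such elements; Cdkn1a, the p21 gene, is shown as the best known p53 target. Capitals mark bases that match the consensus, lower case marks bases that do not, and each is read 5′ to 3′ on the strand of the gene.

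Ccng1 (chr11:40755462-40755481, minus strand): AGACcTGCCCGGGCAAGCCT

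Cdkn1a (chr17:29090928-29090947, plus strand): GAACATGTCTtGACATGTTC

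Trp53 (chr11:69580284-69580303, plus strand): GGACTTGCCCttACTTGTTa

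Mdm4 (chr1:133025626-133025645, minus strand): AGGtATGCTgtGGCAAGCCT

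Gadd45a (chr6:67037632-67037651, minus strand): AAACTAcCTaGAGCTgGCTC

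Sesn1 (chr10:41887266-41887285, plus strand): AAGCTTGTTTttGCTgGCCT

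The Ccng1 and Cdkn1a sequences differ from the consensus at 1 base, and a match at least that close was found in 0.0883% of 32851 promoter windows (29 windows). The sequences of Trp53, Mdm4, Gadd45a and Sesn1 differ at 3 bases, and 6.29% of all windows hold a match at least that close. The other starts of Mdm4, Sesn1 and Cdkn1a, and the single windows of Mdm2 and Phlda3, held nothing closer than 5 or 6 mismatches. A match with 5 or fewer is held by 76.6% of all windows. The well-known elements of Mdm2 and Gadd45a lie in introns, outside these windows. These matches describe the letters only: no binding was measured.

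Levels are given in FPKM (fragment numbers divided by transcript length and library size), so genes can be compared with each other. Counting intervals (95%, exact) come from fragment numbers estimated from the low values of the table and cover counting error only; a single fragment over 1 kb of transcript added about 0.0194 FPKM in APL#1, as against 0.0180 FPKM in APL#2. Of 23235 genes, 4100 had a mean of at least 1 FPKM over both libraries and are called measured. Their median ratio of APL#2 to APL#1 was 0.835, and their median difference on the log2(FPKM + 1) scale was -0.17, so ratios are also given relative to that median ratio. On the log2(FPKM + 1) scale 86 of the 4100 genes were at least 2-fold higher in APL#2 (2.10%) and 100 at least 2-fold lower (2.44%); by the plain ratio the shares were 3.39% and 6.83%. The promyelocyte markers fixed for the check of the label all had a mean of at least 1 FPKM (8 of 8, Mpo the highest). Of these 8, 2 were at least 2-fold lower in APL#2, namely Mpo (myeloperoxidase) at 662 and 157 FPKM and Elane (neutrophil elastase) at 32.4 and 5.01, while Ms4a3 stood at 7.85 and 15.9; their part in the results below was not tested. By contrast, 23 of 23 markers of B cells, T cells, NK cells, erythroid cells and macrophages were under 1 FPKM in both libraries. The summed levels of these 5 lists ran from 0.00723 to 0.232 FPKM in APL#1 and from 0.00547 to 0.736 in APL#2. Among the macrophage markers, Emr1 stood at 0.0230 FPKM in APL#1 against 0.537 FPKM in APL#2. By ratio, 3 of the 5 macrophage markers lay above the all-gene median ratio and 2 below. All 5 B cell markers lay above it, and the part of host cells was not tested. Of the 4 megakaryocyte markers only Itga2b, and of the 5 endothelial and stromal markers only Pecam1, reached a mean of 1 FPKM.

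Of the 9 genes, 7 had ratios of APL#2 to APL#1 between 0.707 and 1.31, and the best covered exception was Perp, at 0.536 FPKM in APL#1 against 1.92 FPKM in APL#2. Of the 9 genes, 5 were measured (Trp53, Mdm2, Mdm4, Perp and Gadd45a), Perp only through its level in APL#2. Ccng1, with a mean of 0.996 FPKM, lay just under the limit, Sesn1 lay at 0.662, and Phlda3 and Zmat3 were near the bottom of detection. None of the 5 measured genes was at least 2-fold apart on the log2(FPKM + 1) scale, and 1 of the 5, Perp, was so by the plain ratio; with so few genes these counts say little beside the shares of 2.10% and 3.39% over all measured genes. Relative to the median ratio of all measured genes, 5 of the 9 ratios lay above it and 4 below. Above it also lay 54.9% of the 12226 genes with signal in both libraries.

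**Figure D1:**
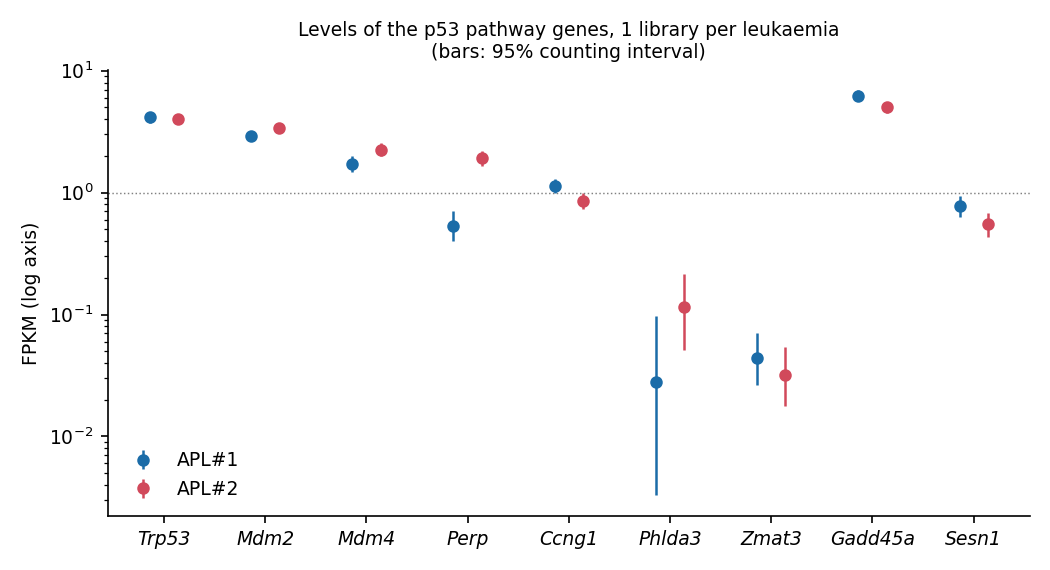
FPKM (log axis) of the 9 genes in APL#1 (blue) and APL#2 (red), 1 library each, with 95% counting intervals as bars and a dotted line at 1 FPKM. The pairs of points lie close together except for Perp, at 0.536 and 1.92 FPKM, and Phlda3, whose wide bars rest on 2 and 9 estimated fragments.

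Trp53 stood at 4.16 FPKM in APL#1 against 4.01 FPKM in APL#2, above 92.1% and 93.3% of the genes with signal in each library. It lies on mm9 chromosome 11, 69393860 to 69405375. The ratio was 0.964 with a counting interval of 0.835 to 1.11, and relative to the median ratio of all measured genes it was 1.16, so the side on which it lies turns with the scaling. Before scaling, the difference in Trp53 RNA between the leukaemias lay within the counting error. The median ratio of all measured genes, 0.835, lay almost at the lower end of that interval and just outside it.

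Mdm2 stood at 2.91 FPKM in APL#1 against 3.41 FPKM in APL#2, a ratio of 1.17 (counting interval 1.04 to 1.33). Mdm4 stood at 1.72 and 2.25 FPKM, a ratio of 1.31 (1.07 to 1.61). Both p53 inhibitors were therefore slightly higher in APL#2, by more than counting error alone, and relative to the median ratio of all measured genes theirs were 1.40 and 1.57. Mdm2 lies on mm9 chromosome 10 (117125960 to 117147772) and Mdm4 on chromosome 1 (134886421 to 134921925).

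Set against Trp53 in the same library, Mdm2 RNA amounted to 0.700 of the Trp53 level in APL#1 (0.610 to 0.804) and 0.851 in APL#2 (0.748 to 0.969). Mdm4 amounted to 0.413 of Trp53 (0.343 to 0.497) and 0.562 (0.477 to 0.661). The intervals of the libraries overlap for both genes. Mdm4 relative to Mdm2 was 0.590 (0.492 to 0.706) and 0.660 (0.566 to 0.768), so the order Trp53, Mdm2, Mdm4 was the same in both leukaemias. For Mdm4 the fragment number rests on its shortest RefSeq-paired transcript, which widens the interval.

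Perp encodes a tetraspan membrane protein related to PMP22 that is known both as an effector of p53-dependent apoptosis and as a part of desmosomes in epithelia, so it is not a purely non-apoptotic target. It stood at 0.536 FPKM in APL#1 (counting interval 0.404 to 0.702, about 54 fragments) and at 1.92 in APL#2 (1.66 to 2.19, about 208 fragments). The ratio was 3.57 with a counting interval of 2.63 to 4.90, and the intervals of the levels did not overlap. Perp was the seventh most abundant of the 9 genes in APL#1 and the fifth in APL#2. Of the 4100 measured genes, 63, Perp included, had a ratio at least as high (1.54%), and of 2006 genes with a mean between 1 and 2 FPKM, 15 did (0.748%). Perp reached a mean of 1 FPKM, and so entered both sets, only through its level in APL#2. These shares therefore describe its rank and are no separate support for the difference.

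The error implied by the authors' own test is much wider than the counting error. In the authors' deposited table Perp had a test statistic of -1.71, a p of 0.0870 and a q of 0.999997. That test sets 1 library against 1 library, without replicates. The p of the other 8 genes in the authors' deposited table ran from 0.210 (Phlda3) to 0.951 (Trp53). The log2 ratio of 1.84 had an implied standard error of 1.07. Over the 9 genes the implied standard error ran from 0.76 (Mdm2) to 1.64 (Phlda3) on the log2 scale, and no log2 ratio exceeded 2 times its own.

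Epithelial markers were low in both libraries. Of 9 epithelial markers 8 were under 1 FPKM in both libraries, and the defining markers Krt5, Krt8, Krt18 and Epcam were listed at 0 in both. Dsp, the desmosomal protein desmoplakin, stood at 1.47 FPKM in APL#1 against 1.07 FPKM in APL#2, and Cdh1, which encodes E-cadherin, at 0.744 and 0.772 FPKM. The summed level of the list was 2.30 and 1.85. Of the 4 epithelial markers with signal in both libraries, 2 lay above the all-gene median ratio (Cdh1 and Krt14) and 2 below (Dsp and Jup). Krt14 stood at only 0.00015 and 0.0018 FPKM, an estimate of 0 fragments in each library. Jup stood at 0.0764 FPKM in APL#1 against 0.00337 FPKM in APL#2, on about 13 and 1 fragments. Its ratio was 0.0440 (0.00167 to 0.474). The part of these markers in the Perp difference was not tested. Trp63, the p53 relative that drives Perp in skin, was listed at 0 in both libraries, as was Trp73. Among the relatives of Perp, Pmp22, Emp1 and Emp2 were listed at 0 in both, and Emp3 stood at 11.8 and 12.5 FPKM.

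**Figure D2:**
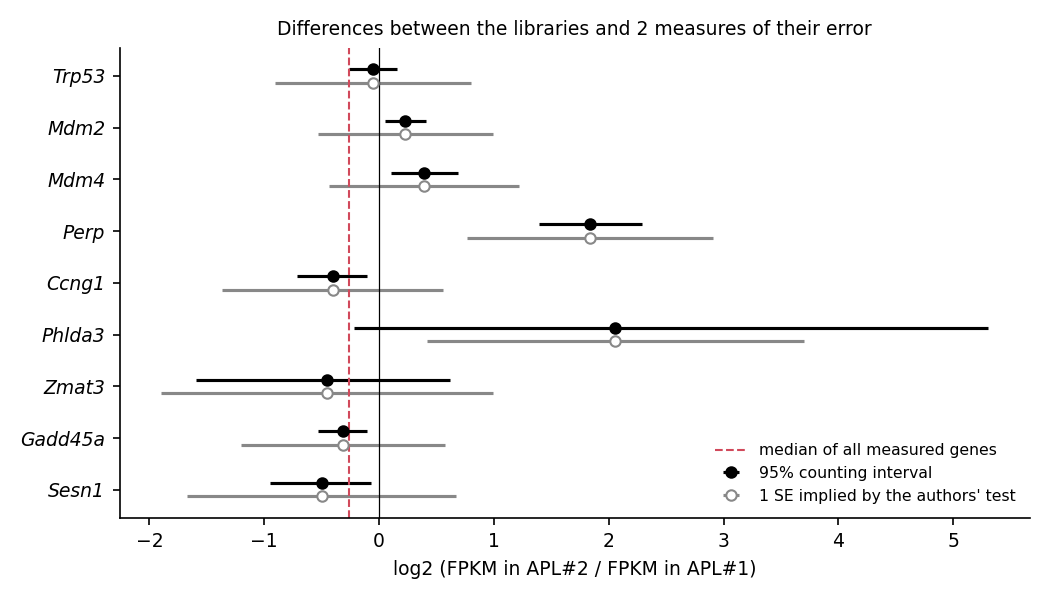
Log2 ratio of FPKM in APL#2 to APL#1 for each of the 9 genes, with the 95% counting interval (black) and 1 standard error implied by the authors' test (grey). The dashed line is the median of all measured genes. Neither bar of Perp, at 1.84, nor of Phlda3 reaches it, and Phlda3 has the widest intervals. The grey bars span only 1 standard error, and no log2 ratio exceeded 2 times its own.

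Gadd45a, a stress sensor that slows the cell cycle and takes part in DNA repair, was the most abundant of the 9 genes in both libraries. It stood at 6.23 FPKM in APL#1 against 5.005 FPKM in APL#2, a ratio of 0.803 (counting interval 0.694 to 0.932), and at 0.962 relative to the median ratio of all measured genes. The deposited locus (mm9 chromosome 6, 66985089 to 67030646) is shared with the row E230016M11Rik, at 0.217 and 0.168 FPKM, so some reads could have been split between the rows. Its relative Gadd45b, better known for its response to NF-kB and cytokine signals, stood at 3.11 and 2.86 FPKM, and Gadd45g at 0.259 and 0.332. The family thus had 1 order in both leukaemias, Gadd45a above Gadd45b above Gadd45g.

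Ccng1 encodes cyclin G1, which brings the phosphatase PP2A to Mdm2. It stood at 1.13 FPKM in APL#1 against 0.857 FPKM in APL#2, a ratio of 0.755 (0.610 to 0.928), at mm9 chromosome 11, 40562053 to 40568788. This is lower in APL#2 by more than counting error, but at 0.905 of the median ratio of all genes it lay within its interval of that median. Its relative Ccng2, a target of FoxO factors, stood at 1.18 and 0.685 FPKM, a ratio of 0.582 (0.453 to 0.746). Ccng1 has the closest p53 match among the 7 genes searched. Cdkn1a, with an equally close match, stood at 1.41 and 2.07 FPKM, a ratio of 1.46 (1.07 to 2.02).

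Sesn1 encodes a sestrin, a protein that restrains mTORC1 signalling under stress. It stood at 0.775 FPKM in APL#1 against 0.548 FPKM in APL#2, a ratio of 0.707 (0.517 to 0.9501), at mm9 chromosome 10, 41530379 to 41628242. Relative to the median ratio of all measured genes it was 0.847, and its counting interval holds that median ratio of 0.835. Sesn2 stood at 0.450 and 0.191 FPKM, a ratio of 0.426 (0.281 to 0.639). Sesn3 stood at 0.277 and 0.132 FPKM, a ratio of 0.477 (0.349 to 0.645). All 3 sestrins lay below 1 FPKM, with Sesn1 the most abundant, and had a plain ratio below 1, as did 64.4% of the 12226 genes with signal in both libraries. Relative to the median ratio of all measured genes, Sesn2 stood at 0.510 and Sesn3 at 0.572. Of the 13 paralogs of the 9 genes, 6 were listed at 0 in both libraries and 2 were measured, with none at least 2-fold apart and a list median of 0.16, which turned to -0.087 with genes of mean FPKM at least 0.1 and to -0.13 with all genes that had signal in both libraries. The paralogs Sesn3, Gadd45b, Gadd45g and Emp3 were named after their values were seen, as were Cdkn1a, Dsp, Jup and Krt14.

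Phlda3 encodes a small protein with a PH domain that competes with Akt for membrane lipids. It stood at 0.0277 FPKM in APL#1 against 0.115 FPKM in APL#2, about 2 and 9 fragments. The ratio of 4.16 had a counting interval of 0.861 to 39.6, which holds 1. Before scaling, a difference was therefore not detectable at this depth. On these few fragments the interval lies just above the median ratio of all measured genes, 0.835. Its relative Phlda1 stood at 1.29 FPKM in APL#1 against 0.277 FPKM in APL#2, a ratio of 0.215 (0.139 to 0.322). Phlda2, an imprinted gene of placenta, was listed at 0 in both.

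Zmat3 encodes an RNA-binding zinc finger protein that acts on splicing and stability of transcripts. It stood at 0.0439 FPKM in APL#1 against 0.0320 FPKM in APL#2, about 18 and 14 fragments over a transcript of 7797 bases. The ratio of 0.730 had a counting interval of 0.331 to 1.53, which holds both 1 and the median ratio of 0.835. No difference was therefore detectable by either reference. Zmat3 shares its deposited locus (mm9 chromosome 3, 32233715 to 32266360) with the row 4930429B21Rik, which was listed at 0 in both. Phlda3 and Zmat3 were thus barely detected in libraries in which Trp53, Mdm2 and Gadd45a stood above 88.6% or more of the genes with signal. In a bulk library, few cells with the RNA and little RNA per cell cannot be told apart.

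The order of the 9 levels was nearly the same in both leukaemias. In APL#1 it ran Gadd45a, Trp53, Mdm2, Mdm4, Ccng1, Sesn1, Perp, Zmat3, Phlda3, and the counting intervals of neighbours overlapped for Sesn1 with Perp and for Zmat3 with Phlda3. In APL#2 it ran Gadd45a, Trp53, Mdm2, Mdm4, Perp, Ccng1, Sesn1, Phlda3, Zmat3, and neighbours overlapped for Trp53 with Mdm2, Mdm4 with Perp and Phlda3 with Zmat3. The first 4 places were thus held by the same genes in the same order.

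**Figure D3:**
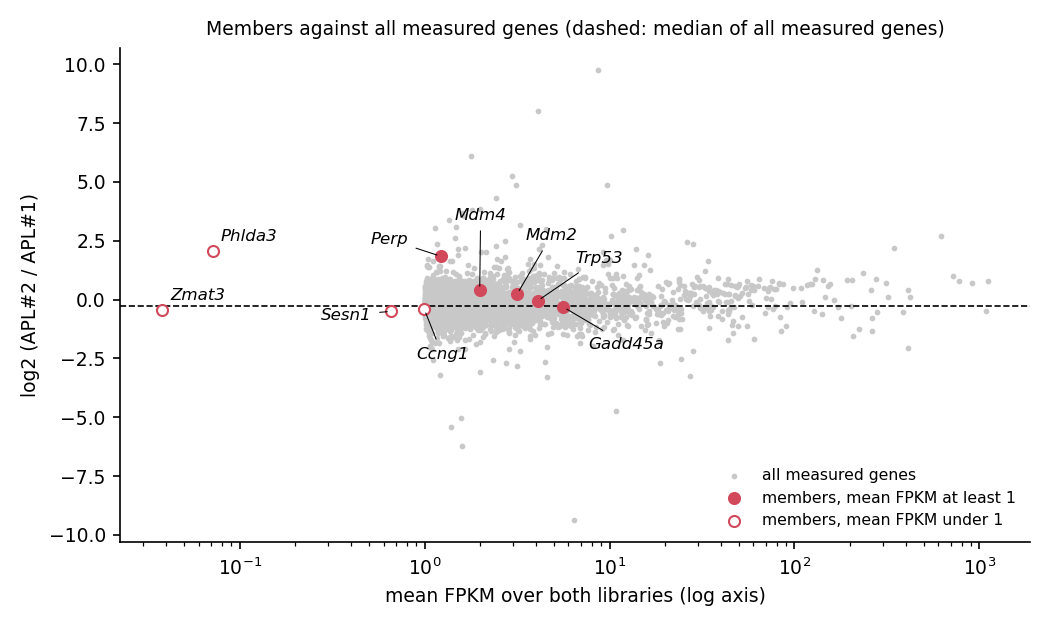
Log2 ratio of APL#2 to APL#1 against mean FPKM (log axis) for measured genes (grey; 4050 drawn, 50 at 0 in 1 library not drawn) and the 9 genes (red, open where the mean is under 1 FPKM). Perp lies at the upper edge of the cloud at its level, while Trp53, Mdm2, Mdm4, Gadd45a, Ccng1 and Sesn1 lie within the cloud or at its low end near the dashed median.

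Position in the genome was checked with the measured genes within 1 Mb on each side, since neighbouring genes can move together when chromosome parts are gained or lost. The 5 measured neighbours of Perp (mm9 chromosome 10, 18564876 to 18576878) had a median ratio of 0.935 relative to all measured genes, with a highest value of 1.42, against 4.28 for Perp. The 5 neighbours of Mdm2 stood at 0.903 and the 3 of Mdm4 at 0.980, in each case with no neighbour as high as the gene itself (1.40 and 1.57). Perp, Mdm2 and Mdm4 each had a higher ratio than these few neighbours. Copy number was not measured, and a gain or loss of chromosome parts was not tested.

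The 32 measured neighbours of Trp53 stood at a median of 0.906 against 1.16 for Trp53, and 5 of them were as high or higher. The neighbours of Ccng1 (3 genes) stood at 0.732, those of Gadd45a (4) at 1.14 and those of Sesn1 (4) at 1.16, with the members inside the range of their neighbours. Phlda3 (mm9 chromosome 1, 137662661 to 137665711) stood at 4.98, on few fragments, against 4 neighbours at a median of 0.947 and a highest value of 1.70. Zmat3 stood at 0.874 and had 1 measured neighbour, at 0.427.

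**Figure D4:**
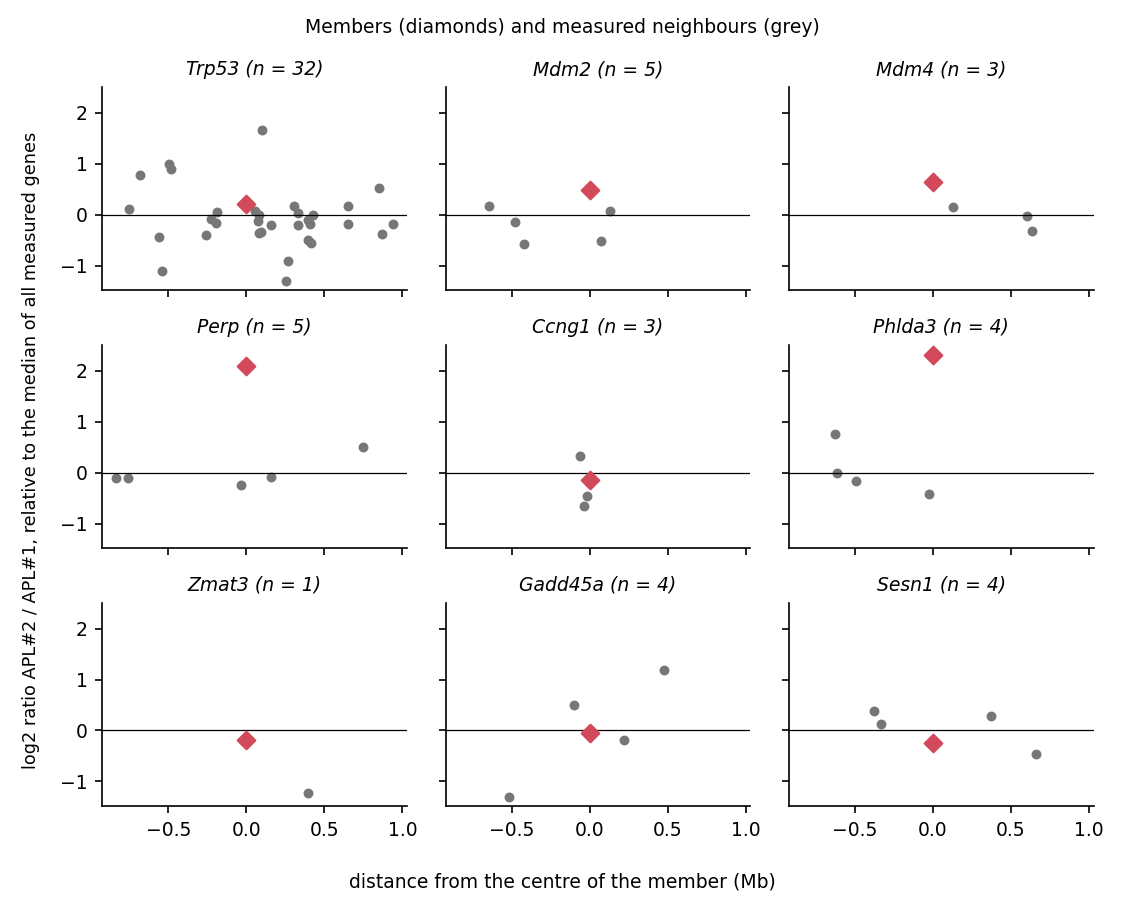
Log2 ratio of APL#2 to APL#1, relative to the median of all measured genes, for each of the 9 genes (red diamonds) and the measured genes within 1 Mb (grey), against distance from the centre of the gene in Mb. The diamonds of Perp, Mdm2, Mdm4, Phlda3 and Zmat3 (1 neighbour) lie above all their grey points, and that of Trp53 lies among 32 neighbours.

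Among the genes that act on p53, Cdkn2a had the widest difference. Of 28 regulators of p53, 12 were measured, of which 7 lay above the median of all genes and 5 below (list median 0.03 on the log2 scale, against 0 for all measured genes by construction), and none was at least 2-fold apart. Over all measured genes 2.10% were at least 2-fold higher and 2.44% lower, so none among so few genes says little, here and for the targets below. Of all measured genes 50% lie above their median by construction, and counts on each side among so few genes say equally little. Cdkn2a, whose products p16 and Arf hold back the cell cycle and Mdm2 respectively, stood at 0.0482 FPKM in APL#1 against 0.658 FPKM in APL#2. These values rest on about 2 and 31 fragments, and the ratio of 13.6 has a counting interval of 3.65 to 124; the table does not separate the products. In the authors' deposited table its p was 0.0413 and its q 0.999997.

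The other leading regulators were abundant genes with small differences. Ubb, a polyubiquitin gene, stood at 169.8 and 112.6 FPKM, a ratio of 0.663. Rps7, a ribosomal protein that binds Mdm2 when ribosome assembly fails, stood at 14.7 and 21.8 FPKM, a ratio of 1.48; ribosomal protein genes have many pseudogenes, so its level is uncertain. Among the kinases that signal DNA damage to p53, Atm stood at 0.222 and 0.311 FPKM, Atr at 0.195 and 0.267, Chek1 at 0.279 and 0.223 and Chek2 at 1.54 and 1.14. Ppm1d, the phosphatase that ends the response, stood at 0.507 and 0.595. The 5 last genes were named after their values were seen.

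Other p53 targets outside apoptosis were spread to both sides. Of 33 listed genes 7 were measured, with 5 above the all-gene median and 2 below it (list median 0.33), and none was at least 2-fold apart. With 50% of all measured genes above that median, a split of 7 genes says little. Of the 33, 24 were under 1 FPKM in both libraries. Xpc, which recognises damaged DNA, stood at 3.97 and 5.76 FPKM, a ratio of 1.45. Relative to the median ratio of all measured genes, Xpc stood at 1.74 and its 4 neighbours at a median of 1.26. Cd82, a tetraspanin known as a suppressor of metastasis, stood at 1.31 and 0.600 FPKM, a ratio of 0.458. Relative to that same median ratio, Cd82 stood at 0.549 and its 3 neighbours at a median of 0.716. Sfn, the 14-3-3 sigma gene of the arrest before mitosis, stood at 0.732 and 0.287 FPKM, a ratio of 0.392. Cdkn1a and these 3 genes therefore did not share a direction, and neither did Btg2, an antiproliferative p53 target named after its values were seen, at 6.12 and 4.84 FPKM.

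Of 11 listed p53 targets of apoptosis, 10 were in the table and 5 were measured, with 4 above the all-gene median and 1 below it (list median 0.17). With 50% of all measured genes above that median, a split of 5 genes says little. None of the 5 was at least 2-fold apart, which says little beside the shares of 2.10% and 2.44% over all measured genes. Bax, the pore-forming protein of mitochondria, stood at 7.18 and 6.42 FPKM, a ratio of 0.894 that turns to 1.07 relative to the median ratio. Siva1, a death receptor adaptor, stood at 2.87 and 1.89 FPKM, a ratio of 0.656 (0.415 to 1.04). Fas, the death receptor, stood at 0.109 and 0.293 FPKM on about 3 and 9 fragments (ratio 2.69, counting interval 0.692 to 15.9). The list medians depended on the limit of 1 FPKM: with all genes that had signal in both libraries they went from 0.33 to 0.058 for the targets outside apoptosis and from 0.17 to 0.027 for the targets of apoptosis. That of the 9 genes described here, 0.35 over the 5 measured, went to 0.031.

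**Figure D5:**
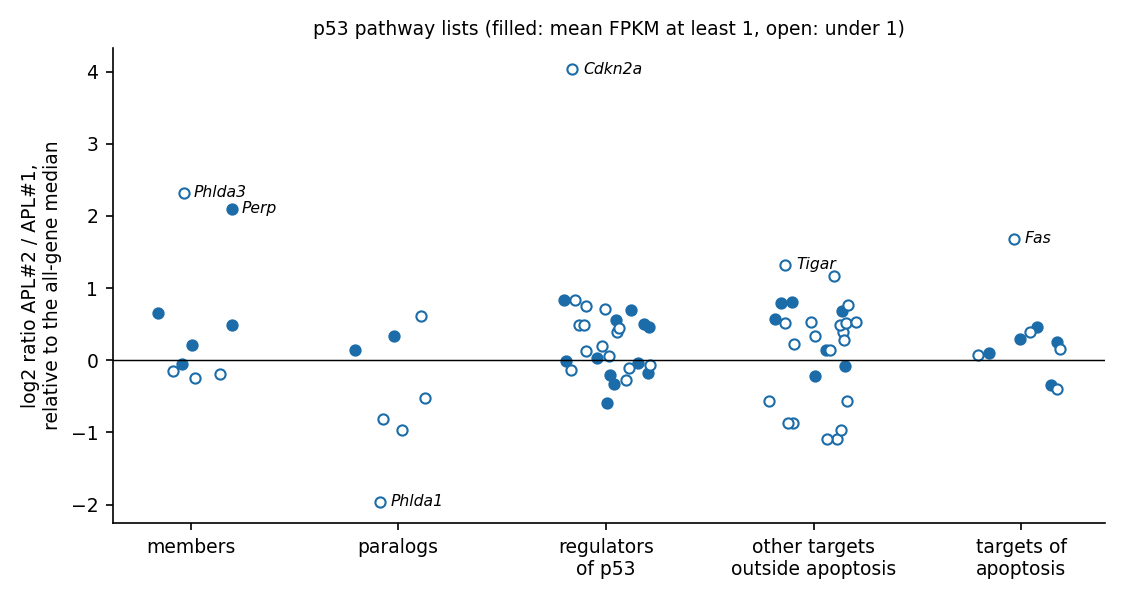
Log2 ratio of APL#2 to APL#1, relative to the median of all measured genes, for the 9 genes (members), their paralogs, regulators of p53, other targets outside apoptosis and targets of apoptosis, for genes above 0 in both libraries; filled points have a mean of at least 1 FPKM. Most points lie near 0, and Cdkn2a, Phlda3, Perp, Fas and Tigar above and Phlda1 below are labelled as the ones farthest away.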

How the data were processed

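The authors deposited 1 gene table comparing both libraries; Cuffdiff, Cufflinks, TopHat2 2.0.10 and build mm9 are named in the submitters' processing notes, without their roles. The deposited level columns were read as FPKM from the table's layout, since the header names no unit; neither the annotation nor the normalization is stated. The test statistic (a score per gene), p-value and q-value are the authors' own, per the file headers; implied standard errors are the log2 ratio divided by that statistic. No test was run here, since there is 1 library per leukaemia.

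Ratios were computed in Python 3.11.15 with pandas 2.3.3 and scipy 1.17.1, and differences used a pseudocount of 1, which understates those of low genes. Fragment numbers were estimated from the commonest library ratio among 3168 genes under 0.2 FPKM (1.08, in 305 genes) and from GENCODE M21 transcript lengths, taking the shortest RefSeq-paired transcript; scaling totals came to about 51400000 and 55600000 fragments. The estimate was tested on simulated data. From the lists of paralogs, regulators and targets, the genes with the 3 largest differences on the log2(FPKM + 1) scale were named. Other genes named from these lists, and the markers named, were not chosen by that rule. The 9 genes and the lists were chosen with earlier results of these data known. Alternatives covered the pseudocount, library scaling, the filter on low values, small RNA genes in the reference and the neighbour window.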

Additional observations from a re-analysis of the deposited data

How the results depend on the processing

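The count of measured genes of the group at least 2-fold apart depended on the setting: it was 0 as reported and 1, namely Perp, with a pseudocount of 0.1, a pseudocount of 0.5, upper quartile scaling and median ratio scaling. The median of the paralogs, over 2 measured genes, went from 0.16 to -0.087 with genes of mean FPKM at least 0.1 and to -0.13 with no filter except signal in both libraries. With these same limits the median of the 9 genes went from 0.35 to 0.045 and 0.031, that of the other targets from 0.33 to 0.098 and 0.058, and that of the apoptosis targets from 0.17 to 0.066 and 0.027. Perp, relative to the all-gene median, ranged from 0.97 to 1.91 on the log2 scale over all settings, and 52 of 63 alternative values of the 9 genes stayed within their counting interval. The fold of low genes is limited by depth, as for Phlda3 and Zmat3. No paired analysis was possible because each leukaemia has 1 library, and for the same reason none could be left out.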
